A study of Homo sapiens with 4 samples.

Results

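The heat shock proteins and their cytosolic co-chaperones were followed in SUIT2 cells treated with fb-PMT. The list held 42 genes: the transcription factors of the heat shock response, the HSP70, HSP110 and HSP90 chaperones, J-domain proteins, BAG-family and other cofactors, small heat shock proteins and the HSP60 and HSP10 pair. A gene was taken where the platform annotation gave its symbol to a probe set, which held for 36 of the 42, each with 1 transcript cluster (a probe set that summarises 1 locus), out of 17709 transcript clusters with a symbol. HSF2, HSPA1B, HSPA8, AHSA1 and CDC37 were unnamed in that annotation and were not analysed here. HSPB11 was listed under its current symbol IFT25 and is given apart from the counts.

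The arrays compared SUIT2 cells kept for 24 h in fb-PMT at 30 µM (2 arrays) with SUIT2 cells labelled untreated (2 arrays). The untreated cells were given phosphate-buffered saline for the same time, and all cells grew in RPMI with serum. fb-PMT is a polyethylene glycol conjugate of a thyroid hormone analog, made to act at integrin αvβ3, and the study asked how it alters transcription of genes that cancer cells need for mitochondrial function. The labels name 1 cell line and give no separate cultures for the replicates, so p-values here weigh a spread that may be technical. SUIT-2 is known as a pancreatic carcinoma line, while the labels call the cells glioblastoma: the epithelial markers KRT8, KRT18, KRT19 and EPCAM lay between 15.09 and 16.45 on the log2 scale on all 4 arrays, and the glial markers GFAP, OLIG2, SOX10, AQP4 and S100B lay under the negative controls throughout. Of the other markers COL1A2 and CD68 were above the negative controls, whereas the epithelial CDH1 as well as COL1A1, PDGFRB, DCN, PTPRC and CD3E were below.

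Molecular chaperones bind unfolded stretches of other proteins and help them reach or regain their fold. HSP70 works with J-domain proteins, which deliver the client and trigger ATP hydrolysis, and with exchange factors such as BAG proteins and HSP110, which release the nucleotide. HSP90 takes over partly folded clients with its own set of co-chaperones, and HSF1 turns on many of these genes by binding heat shock elements, inverted repeats of a GAA unit. Cancer cells commonly carry high levels of these proteins.

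Promoter sequences are shown because the members are known for this element and because the differences are set against it further on. RefSeq windows (GRCh38.p14) from 250 bases before to 50 bases after each transcription start were found for 35 of the 42 genes, 50 windows in all, since several genes have more than 1 start. The letters searched were GAANNTTC and TTCNNGAA for 2 inverted units, and either of these followed by NN and a further inverted unit for 3 units, so that a match to 3 units overlaps matches to 2. The motifs of 2 units read the same on both strands and those of 3 units are each other's reverse complement, so both strands were covered. Stretches of 30 bases are shown around each run of 3 or more units that lies before the start of a measured member, around the 2-unit matches of DNAJB1 (from 1 of its starts) and HSPA4L, and around that of HSPA1B for comparison with HSPA1A. They run 5′ to 3′ on the gene's own strand, with the matched letters in capitals.
CHORDC1 (chr11:90223084-90223113, minus strand): accgGAAAATTCGCGAAGGTTCCTGAAacg
HSPD1 (chr2:197500061-197500090, minus strand): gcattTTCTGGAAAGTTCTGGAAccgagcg
HSP90AA1 (chr14:102087112-102087141, minus strand): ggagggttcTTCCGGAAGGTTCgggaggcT
HSP90AB1, upstream run (chr6:44247769-44247798, plus strand): gggagcaggTTCTGGAAGATTCatgggctc
HSP90AB1, downstream run (chr6:44247822-44247851, plus strand): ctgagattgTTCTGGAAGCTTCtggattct
HSPA6 (chr1:161524457-161524486, plus strand): gcggaaaggTTCGCGAAAGTTCgcggcggc
DNAJB6 (chr7:157336864-157336893, plus strand): aagagccgaGAACCTTCGCGAAggtggggc
DNAJB1, upstream match (chr19:14518456-14518485, minus strand): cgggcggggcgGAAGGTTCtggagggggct
DNAJB1, downstream match (chr19:14518426-14518455, minus strand): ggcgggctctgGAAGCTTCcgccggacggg
HSPA4L (chr4:127782141-127782170, plus strand): tttccagatctTTCTCGAAcccgcagcttc
HSPA1B (chr6:31827622-31827651, plus strand): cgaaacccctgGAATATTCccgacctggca
The run of CHORDC1 joined 5 units without a break, from 60 to 38 bases before its start, and that of HSPD1 joined 4, counted from the downstream of its starts. The last capital of HSP90AA1 begins a separate match that lies just downstream. HSP90AB1 carried 3 units in each of 2 places, both in the window of the most downstream of its starts. Its other windows held no match.

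The promoters of HSPA1A and HSPA2, the members with the largest differences, are printed from 250 bases before the start to the base before it. HSPA1A lies head to head with HSPA1L, and the 250 bases fall within the 259 bases between their starts.
HSPA1A (chr6:31815293-31815542, plus strand): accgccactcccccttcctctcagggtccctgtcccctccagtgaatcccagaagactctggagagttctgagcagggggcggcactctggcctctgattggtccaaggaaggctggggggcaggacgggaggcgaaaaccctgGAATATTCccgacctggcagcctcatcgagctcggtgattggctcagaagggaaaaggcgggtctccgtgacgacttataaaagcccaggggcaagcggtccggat
HSPA2 (chr14:64540491-64540740, plus strand): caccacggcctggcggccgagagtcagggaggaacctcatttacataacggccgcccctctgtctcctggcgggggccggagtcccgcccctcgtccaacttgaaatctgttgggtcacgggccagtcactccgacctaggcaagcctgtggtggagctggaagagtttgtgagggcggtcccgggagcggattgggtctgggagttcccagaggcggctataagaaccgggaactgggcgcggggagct
HSPE1 with HSPD1 (chr2:197500275-197500378, plus strand, the 104 bases between their nearest starts): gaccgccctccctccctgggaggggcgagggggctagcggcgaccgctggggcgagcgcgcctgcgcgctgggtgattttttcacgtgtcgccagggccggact
HSPA1A held 1 match to 2 units, from -106 to -99, which lies from -161 to -154 on the strand of HSPA1L. No match lay in the window of HSPA2 or in the 104 bases between the nearest starts of HSPE1 and HSPD1. This is a statement about these letters in these stretches alone. The run of HSPD1 printed above lies outside those 104 bases, between the downstream start of HSPD1 and the start of HSPE1. Over 249 bases set side by side without gaps, the promoters of HSPA1A and HSPA1B shared 235 (94.4%).

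At least 1 match to 2 units was present in 19 of the 35 members with a window (54.3%), against 16.2% of the 27305 genes in the RefSeq table. A match to 3 units was present in 8 of the 35 (22.9%: CHORDC1, DNAJA1, DNAJB6, HSP90AA1, HSP90AB1, HSPA6, HSPA8 and HSPD1), against 0.608% of all genes. Counted by window, 40.0% of the 50 windows of members and 13.5% of all 35116 windows held 2 units. Genes with several starts had more windows in which a match could fall.

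**Figure D1:**
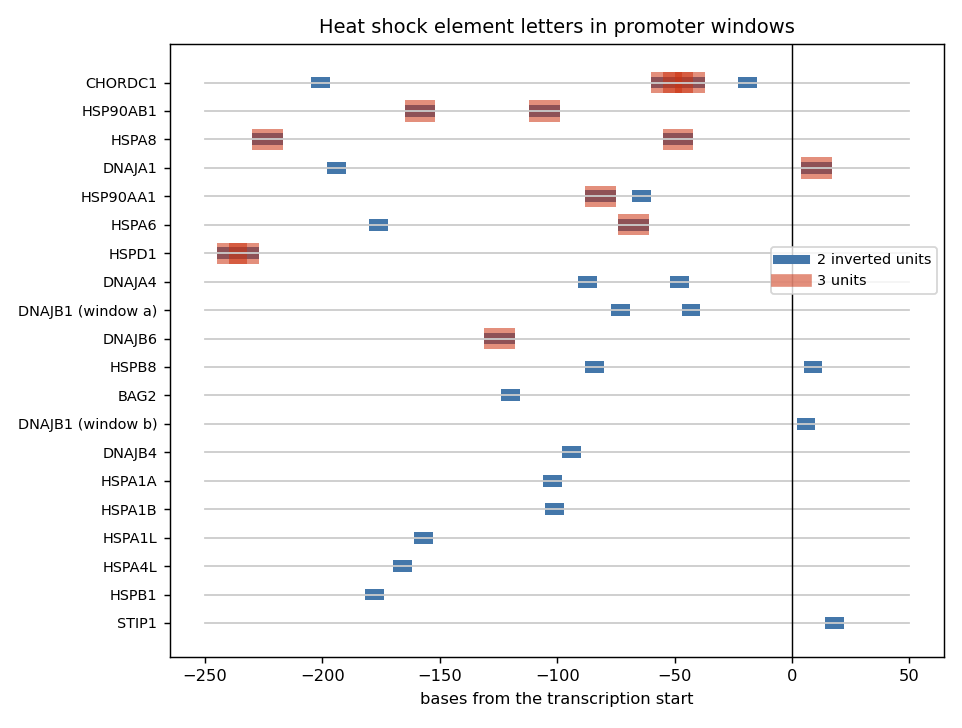
Position of heat shock element letters, in bases from the transcription start (x axis), in each promoter window of a member that held a match (rows). Narrow blue bars are matches to 2 inverted units and tall red bars are matches to 3 units. The 8 genes with red bars include CHORDC1, whose 5 joined units lie 60 to 38 bases before the start, while HSPA1A has a single blue bar.

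Most members were lower with fb-PMT by small amounts, and none passed the test. Of the 36 measured members, 27 were lower and 9 higher, where 52.7% of all 21448 transcript clusters tested were lower and 47.3% higher. Their median log2 difference was -0.16, against -0.017 over all transcript clusters. In limma's test 0 members passed an adjusted p of 0.05, where 0% of all transcript clusters passed lower and 0.0979% higher. At an unadjusted p under 0.05, 3 members were lower (HSPA1A, HSPA2 and HSPA4L) and 1 higher (DNAJB5, below the negative controls), a share of 8.33% for the lower direction beside 5.49% of all transcript clusters in that direction and 5.7% in the other. With an intensity trend in the variance, 9 members were lower at that level, beside 6.09% of all transcript clusters (6.04% with robust variances) and 8.13% of those above the negative controls. Both fb-PMT arrays lay below both control arrays for 18 of 36 members, and above both for 2, while over all transcript clusters this held for 22.3% in the lower and 20.2% in the higher direction.

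A transcript cluster is called below the negative controls where it lay under their 95th percentile (7.15 to 7.38 on the 4 arrays) on both arrays of a group. This held in both groups for 7 members: HSPA6, HSPA1L, DNAJB2, DNAJB5, BAG1, HSPB8 and CRYAB. They enter the counts and the plot of differences, but their differences are not read as folds. The other 29 members were above them on both arrays of at least 1 group and below in neither group. Among these, 22 were lower with a median of -0.15, and the groups did not overlap in the lower direction for 14. Of the 9056 transcript clusters at that level, 48.5% were lower, and 22.8% did not overlap in that direction.

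Many of the differences were no larger than the replicate spread. The larger of both replicate gaps (the distance between the 2 arrays of a group) exceeded the difference between groups for 20 of 36 members, and for 69.9% of all transcript clusters. For the other 16 members the difference was at least as large as this gap. Over the 29 members above the negative controls, the median half-width of the 95% interval of a difference was 0.39. A 2-fold fall lay outside the interval for 27 of these and inside it for HSPA1A and HSPA2, and a 2-fold rise lay outside it for all 29. Setting each fb-PMT array against each control array gave member medians of -0.17 to -0.12, with 24 to 27 members lower. Control replicate 2 against control replicate 1 gave a median of 0.087 with 24 members higher, and fb-PMT replicate 2 against replicate 1 gave 0.009. The gap between the control arrays thus ran over many members at once. The member median was -0.15 without control replicate 1 and -0.13 without control replicate 2. Beyond these values, whether the gap bears on the comparison was not tested.

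**Figure D2:**
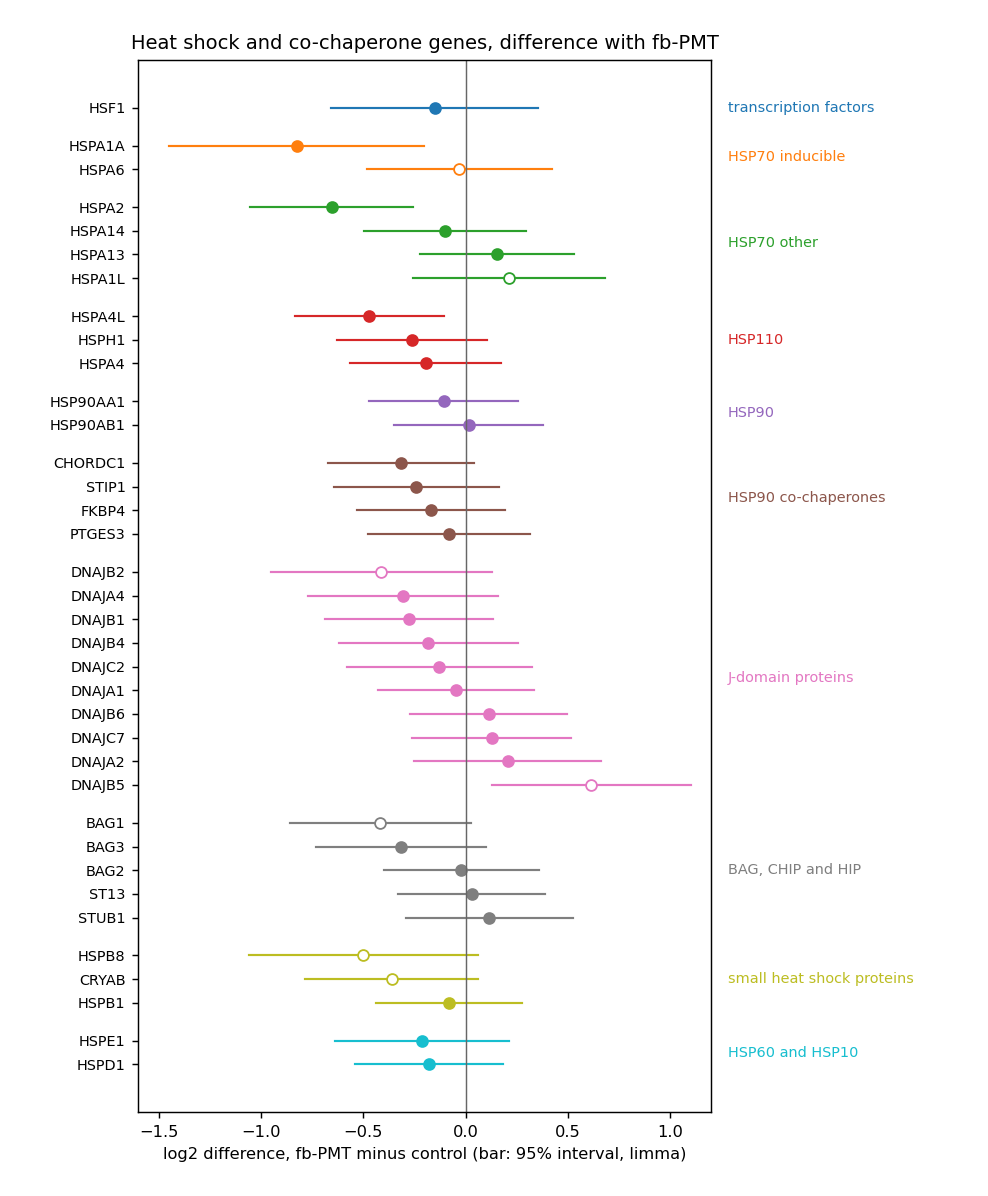
Log2 difference, fb-PMT minus control, with its 95% interval from limma (x axis) for the 36 measured genes, grouped by role. Filled points are genes above the negative controls, and open points are the 7 genes below them in both groups. The points lie left of 0 for 27 genes, and only the intervals of HSPA1A, HSPA2, HSPA4L and DNAJB5, the last with an open point, do not reach 0.

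The transcription factor HSF1, the main switch of the response, had log2 values of 10.48 and 10.96 in controls and 10.62 and 10.51 with fb-PMT. The fb-PMT arrays lay between the control arrays. The difference was -0.15 (SE 0.20, adjusted p = 0.827) and turned to 0.088 without control replicate 2.

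Among the HSP70 chaperones, HSPA1A, the stress-inducible form, had the largest difference of all members. HSPA1A was at 12.41 and 13.06 in controls and at 11.79 and 12.03 with fb-PMT. Both treated arrays were the lower ones, but the control arrays themselves were 0.65 apart. The difference was -0.83 (SE 0.25, 95% interval -1.45 to -0.20, 1.77-fold lower, adjusted p = 0.368), and it was -1.15 without control replicate 1 and -0.50 without control replicate 2. HSPA1B, its close copy, encodes the same protein and had no transcript cluster by name, so how much of this signal belongs to HSPA1B is uncertain. With an intensity trend in the variance, where 0.513% of all transcript clusters passed lower and 1.37% higher, HSPA1A had an adjusted p of 0.0495, and 0.0530 when the variances were also made robust.

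HSPA2, an HSP70 with a main role in spermatogenesis that is also made in other tissues, was at 8.23 and 7.98 in controls and 7.47 and 7.43 with fb-PMT. The groups did not overlap, and the fb-PMT values were close to the negative controls. The difference was -0.65 (SE 0.16, 95% interval -1.05 to -0.26, 1.57-fold lower, adjusted p = 0.297), the smallest adjusted p of all members. It was -0.78 to -0.53 when 1 array was left out, and with only transcript clusters above the negative controls tested its adjusted p was 0.0479, in a fit where 0.902% of the transcript clusters tested passed lower.

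The other measured HSP70 genes had smaller differences, in both directions. HSPA13, a microsomal member, was at 10.87 and 11.04 in controls and 11.09 and 11.13 with fb-PMT, higher without overlap by 0.15 (SE 0.15, adjusted p = 0.756). HSPA14, which works on the ribosome, overlapped between groups with a difference of -0.10 (SE 0.16). HSPA6, a strictly stress-induced HSP70, lay between 4.58 and 4.94 on all 4 arrays, below the negative controls, as did HSPA1L, between 3.42 and 3.92. The promoter of HSPA6 is among those with 3 units printed above, and that of HSPA1L is shared with HSPA1A.

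All 3 HSP110 genes, which exchange the nucleotide of HSP70, were lower without overlap, as were 22.3% of all transcript clusters. HSPA4L was at 12.24 and 12.32 in controls and 11.78 and 11.84 with fb-PMT. These replicates lay within 0.087 of each other, and the difference of -0.47 (SE 0.15, 95% interval -0.84 to -0.11, 1.39-fold lower, adjusted p = 0.378) was several times larger than either gap. HSPH1, the stress-inducible HSP110, was at 14.47 and 14.56 in controls and 14.30 and 14.21 with fb-PMT, a difference of -0.26 (SE 0.15, adjusted p = 0.568). HSPA4 was at 12.96 and 12.85 against 12.75 and 12.66, a difference of -0.20 (SE 0.15, adjusted p = 0.668).

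For the HSP90 genes themselves the differences were small against their errors. HSP90AA1, the inducible form, was at 15.89 and 15.98 in controls and 15.80 and 15.85 with fb-PMT, a difference of -0.11 (SE 0.15, 95% interval -0.47 to 0.26, adjusted p = 0.832). HSP90AB1, the constitutive form, overlapped at 16.26 and 16.35 against 16.34 and 16.30, a difference of 0.014 (SE 0.15, 95% interval -0.35 to 0.38, adjusted p = 0.983). The intervals of both exclude a 2-fold change in either direction.

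Co-chaperones of HSP90 were lower in 4 of 4 measured cases, 3 of them without overlap, with a median of -0.21, where over all transcript clusters 52.7% were lower and 22.3% lower without overlap. CHORDC1, a zinc-binding HSP90 partner that is itself induced by heat shock, was at 14.79 and 14.80 in controls and 14.49 and 14.47 with fb-PMT, so that the replicates lay within 0.027 of each other. Its 4 pairwise differences ran from -0.33 to -0.30. The fitted difference was -0.31 (SE 0.14, 95% interval -0.67 to 0.042, 1.24-fold lower, adjusted p = 0.497). limma's SE exceeds the replicate gap of this gene because it draws each variance toward that of all transcript clusters.

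STIP1, the adaptor HOP that joins HSP70 to HSP90, was at 14.32 and 14.55 in controls and 14.13 and 14.25 with fb-PMT, a difference of -0.24 (SE 0.16, adjusted p = 0.625) that became -0.36 without control replicate 1 and -0.13 without control replicate 2. FKBP4, the immunophilin FKBP52 that serves steroid receptor complexes, was at 12.69 and 12.76 against 12.53 and 12.58, a difference of -0.17 (SE 0.15, adjusted p = 0.707). PTGES3, the p23 co-chaperone, overlapped between groups at 15.72 and 15.48 against 15.52 and 15.51, with a difference of -0.083 (SE 0.16, adjusted p = 0.888).

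**Figure D3:**
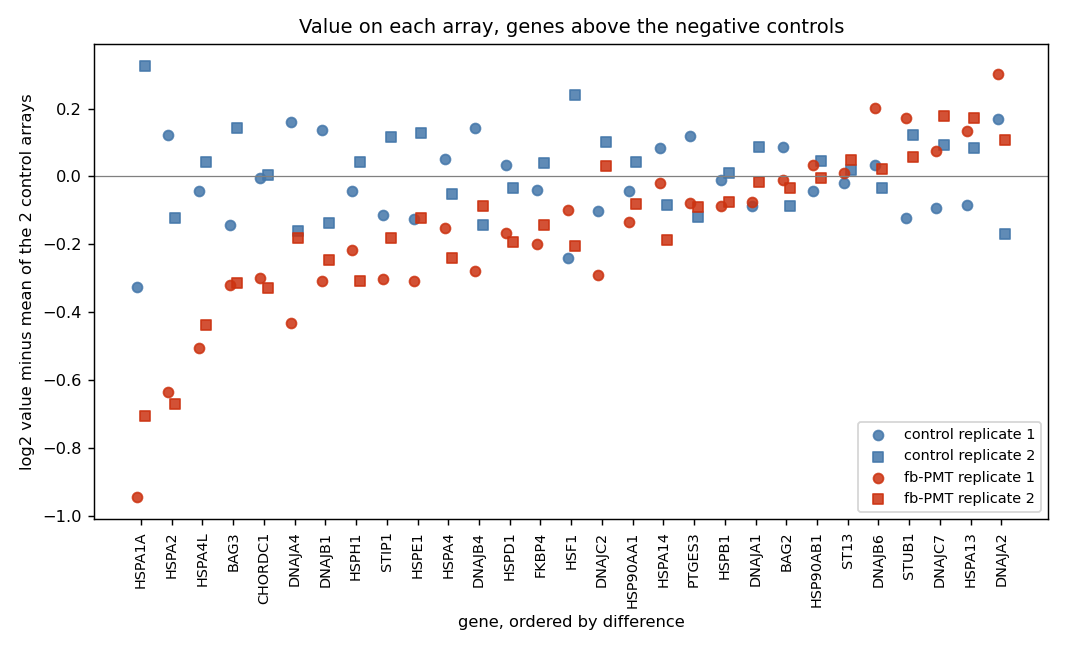
Log2 value on each array minus the mean of the 2 control arrays (y axis) for the 29 genes above the negative controls, ordered by their difference (x axis). Blue points are control arrays and red points fb-PMT arrays, with circles for replicate 1 and squares for replicate 2. Red points lie below both blue ones for 14 genes, and the control arrays are farthest apart for HSPA1A, by 0.65.

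J-domain proteins, which bring clients to HSP70, went both ways: 6 of 10 were lower and 4 higher, with a median of -0.088. Over all transcript clusters 52.7% were lower and 47.3% higher, so the split was near that share. Of the 8 above the negative controls, 5 were lower. DNAJB1, the main heat-inducible HSP40, was at 12.13 and 11.85 in controls and 11.68 and 11.75 with fb-PMT. Its groups did not overlap, and the difference was -0.28 (SE 0.17, 1.21-fold lower, adjusted p = 0.586). It was -0.14 without control replicate 1 and -0.42 without control replicate 2. DNAJA4 was at 9.44 and 9.12 against 8.85 and 9.10, a difference of -0.31 (SE 0.19, adjusted p = 0.593) with a control gap of 0.32. It was -0.15 without control replicate 1, -0.47 without control replicate 2 and -0.18 without fb-PMT replicate 1. Its highest fb-PMT array was 0.020 below its lowest control array.

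Other J-domain genes above the negative controls overlapped between the groups. DNAJB4 was at -0.18 (SE 0.18) and DNAJC2, a ribosome-associated factor, at -0.13 (SE 0.18). DNAJA1, the general cytosolic partner of HSC70, was at -0.046 (SE 0.15), and DNAJA2, of the same class, at 0.21 (SE 0.18). DNAJC7, which binds both HSP70 and HSP90, was at 0.13 (SE 0.16), and DNAJB6, a suppressor of protein aggregation, at 0.11 (SE 0.15). DNAJB5, at 6.02 and 5.66 against 6.31 and 6.60, and DNAJB2, at 6.07 and 6.37 against 6.04 and 5.57, lay under the negative controls throughout.

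Of the BAG proteins, BAG3, a stress-induced exchange factor of HSP70 that directs clients to autophagy, was at 11.99 and 12.27 in controls and 11.81 and 11.82 with fb-PMT. Both treated arrays were the lower ones, and the difference was -0.32 (SE 0.17, 1.25-fold lower, adjusted p = 0.546). Without control replicate 1 it was -0.46, and without control replicate 2 it was -0.17. BAG2, an inhibitor of the ubiquitin ligase CHIP, overlapped with a difference of -0.022 (SE 0.15). BAG1 was below the negative controls, at 7.03 and 7.11 against 6.48 and 6.83. STUB1, which encodes CHIP itself, was at 0.11 (SE 0.16), and ST13, which encodes the HSP70-interacting protein HIP, at 0.029 (SE 0.14), both with overlap.

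Small heat shock proteins hold unfolded clients without ATP. HSPB1, known as HSP27, was at 15.88 and 15.90 in controls and 15.80 and 15.81 with fb-PMT. The groups did not overlap, but the difference was only -0.082 (SE 0.14, 95% interval -0.44 to 0.27, adjusted p = 0.875). HSPB8, the partner of BAG3, and CRYAB, the lens crystallin that is also made in muscle, were under that percentile throughout, HSPB8 between 3.74 and 4.62 and CRYAB between 3.38 and 3.94. IFT25, the gene listed as HSPB11 and now known as a subunit of intraflagellar transport, was at 12.71 and 12.62 against 12.71 and 12.67, a difference of 0.029 (SE 0.15, adjusted p = 0.963).

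HSPD1 and HSPE1 encode HSP60 and HSP10, which together form the folding chamber of the mitochondrial matrix and are transcribed in opposite directions from the shared stretch printed above. HSPD1 was at 15.77 and 15.70 in controls and 15.57 and 15.54 with fb-PMT, lower without overlap by 0.18 (log2 difference -0.18, SE 0.15, adjusted p = 0.689). HSPE1 was at 14.79 and 15.05 against 14.61 and 14.80. Its groups overlapped by 0.0046, and its difference of -0.21 (SE 0.17, adjusted p = 0.682) was -0.34 without control replicate 1, -0.088 without control replicate 2 and -0.12 without fb-PMT replicate 1.

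Other chaperone genes were read from lists drawn up for comparison. TRiC, the ring-shaped chaperonin of the cytosol that folds actin and tubulin, and prefoldin, which hands clients to it, were lower in 12 of 12 measured genes (of 14 listed), by -0.34 to -0.052 with a median of -0.17. Over all transcript clusters 52.7% were lower. The groups did not overlap for 9 of the 12, where 22.3% of all transcript clusters did so in that direction, 0 passed in limma's test, and 0 had an unadjusted p under 0.05. PFDN2 was at 10.14 and 10.04 in controls and 9.62 and 9.88 with fb-PMT (difference -0.34, SE 0.17, adjusted p = 0.520). PFDN5 was at 14.12 and 13.99 against 13.83 and 13.69 (difference -0.29, SE 0.15, adjusted p = 0.546).

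Among 21 further co-chaperones of HSP70 and HSP90, 12 were lower and 9 higher, with a median of -0.018 and 0 past the threshold. The groups did not overlap for 8 in the lower and 4 in the higher direction. Over all transcript clusters this held for 22.3% and 20.2%. FKBP8, a membrane immunophilin, was at 0.42 (SE 0.17, adjusted p = 0.448) and BAG4 at 0.29 (SE 0.16, adjusted p = 0.561), both higher without overlap. A list of HSP70 and HSP90 chaperones in organelles also held their J-domain proteins and exchange factors, and CLPB. Of its measured genes 7 of 12 were higher, where 47.3% of all transcript clusters were higher. In limma's test 0 of them passed the threshold, and 0 had an unadjusted p under 0.05. GRPEL2, an exchange factor of mitochondrial HSP70, was at -0.40 (SE 0.20, adjusted p = 0.522) and DNAJB11, a J-domain protein of the endoplasmic reticulum, at 0.32 (SE 0.15, adjusted p = 0.510). Separated by compartment after the values had been seen, the 6 genes of the endoplasmic reticulum (HSPA5, HYOU1, SIL1, DNAJB9, DNAJB11 and DNAJC3) were all higher, by 0.15 to 0.32. Of the 6 mitochondrial genes 5 were lower (median -0.11), where 52.7% of all transcript clusters were lower. The other mitochondrial gene, HSCB, was higher but lay below the negative controls in both groups. HSPA5, the reticulum HSP70 known as BiP, was at 15.55 and 15.49 in controls and 15.74 and 15.67 with fb-PMT (difference 0.19, SE 0.15, adjusted p = 0.677).

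Other small heat shock genes (HSPB3, HSPB6, HSPB7, HSPB9 and CRYAA) were below the negative controls in 5 of 5 cases. Among 9 measured genes otherwise linked to HSF1, 5 were lower and 4 higher with a median of -0.027, and 0 passed. HSBP1, which binds HSF1, was at -0.21 (SE 0.19, adjusted p = 0.736), and SERPINH1, the collagen chaperone HSP47, at 0.15 (SE 0.23, adjusted p = 0.855).

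**Figure D4:**
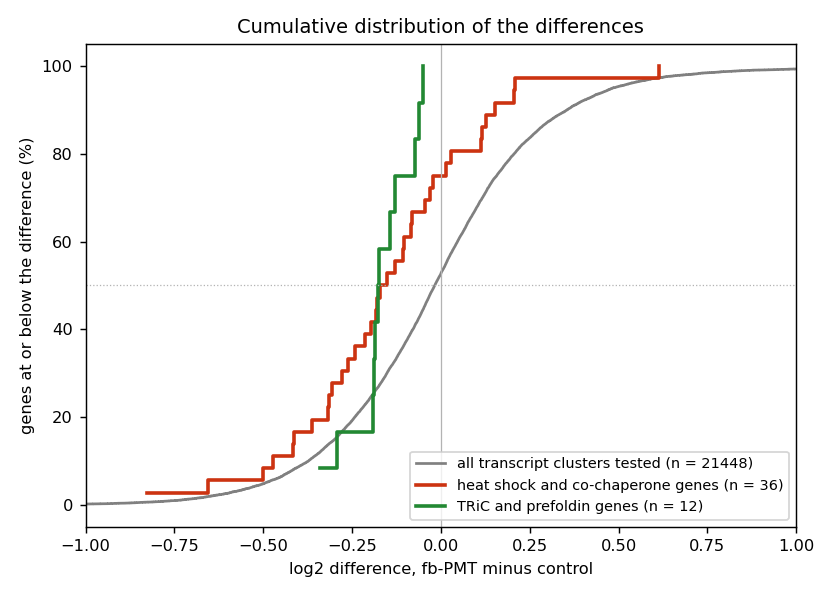
Share of genes in percent (y axis) at or below a given log2 difference, fb-PMT minus control (x axis, drawn from -1 to 1), for all 21448 transcript clusters tested, the 36 members and the 12 TRiC and prefoldin genes. The middle of the members' curve lies left of the grey one, with medians of -0.16 and -0.017, and the TRiC and prefoldin curve reaches 100% before 0.

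Set against the promoter windows, the 10 measured members with a match to 2 units and none to 3 had a median of -0.26, with 9 lower and 7 lower without overlap. The 13 measured members with a window and no match had a median of -0.20, with 9 lower and 6 lower without overlap. They include HSPE1, whose window does not reach the run printed above for HSPD1, which is counted with 3 units. Among the 7 with 3 units, 5 were lower, 3 of them without overlap, and the median was -0.046. Over all transcript clusters 52.7% were lower and 22.3% lower without overlap. Of the members above the negative controls the medians were -0.26 (2 units, 8 members), -0.16 (no match, 10 members) and -0.077 (3 units, 6 members). The members with 3 units ran from -0.31 for CHORDC1 to 0.11 for DNAJB6. HSPA2, with no match, and HSPA1A, with 1 match to 2 units, had the largest differences. HSP90AB1, with 3 units in 2 places before 1 of its starts, was at 0.014. These are descriptions of letters in windows, with no test.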

How the data were processed

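Values of 4 single-colour arrays of SUIT2 RNA were used as deposited: log2 values per probe set, which the authors made by RMA. The submitters' processing notes name the software as Transcriptome Analysis Console 4.0.1.36. Which RMA variant and which genome build were used is not given in the sources used here. RMA compresses the differences of dim probe sets, and its normalization takes out a shift common to most genes. Of 24351 probe sets, 2903 controls were left out, and 21448 transcript clusters went into limma 3.58.1 under R 4.3.3 (lmFit and eBayes, no trend, no covariate), fb-PMT minus control, two-sided, with Benjamini-Hochberg adjustment over all of them and a threshold of 0.05. The prior had 3.72 and the residual 2 degrees of freedom. An exact permutation test of 2 against 2 arrays cannot go below p = 0.333. Array medians were 6.27 to 6.28, and the number of arrays limits the precision (median SE 0.175). The 95th percentile of 612 negative control probe sets served as background. SD, interval and gap are per gene over 2 arrays a group.

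The members and the comparison lists were chosen with earlier results of these data known. All members are named. From each comparison list the text gives those past the threshold or else the 2 largest differences above the negative controls; HSPA5 and the split by compartment were chosen after their values were seen. Same-numbered arrays did not deviate together (r = 0.042 across transcript clusters), so the number was not taken as a pair. Promoter windows come from RefSeq (GRCh38.p14). The fit was tested on simulated data, into which changes larger than the difference of any member were put. That test therefore does not cover changes of the members' size. Alternatives were a replicate block, an intensity trend (also robust), a filter on negative controls, quantile normalization, median centring, an adjusted p of 0.1, leaving out each array, and a mean over several transcript clusters of a symbol, which no member has.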

Additional observations from a re-analysis of the deposited data

How the results depend on the processing

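The count of transcript clusters past the threshold, 21 higher and 0 lower, moved with most of the settings tried. It was 293 and 110 with an intensity trend, 286 and 108 when this was robust, 235 and 83 with the filter on negative controls, and 65 and 8 at an adjusted p of 0.1. With the replicate block 1 was higher, and leaving out 1 array gave 1 to 9 higher and 0 lower. Among the members, 1 was lower past the threshold with the trend (HSPA1A) and 1 with the filter (HSPA2), and 0 with the block or with any array left out. At an unadjusted p under 0.05, 3 members were lower, and 9 with the trend and with the robust trend. Leaving out 1 array gave 1 to 4. The 2 members higher without overlap became 1 with the filter, or when only members above the negative controls were counted (chosen after seeing the data), and 4 to 9 when 1 array was left out, since a group of 1 array overlaps less by construction. The median of the members ran from -0.18 with renewed quantile normalization to -0.13 without control replicate 2 and was below 0 under every alternative run. When 1 array was left out, 28 of 36 members kept their sign, 21 of them lower. The others ran from -0.39 to 0.088 (HSF1), -0.21 to 0.15 (HSPA6), -0.030 to 0.059 (HSP90AB1), -0.20 to 0.036 (PTGES3), -0.13 to 0.040 (DNAJA1), -0.29 to 0.031 (DNAJC2), -0.11 to 0.066 (BAG2) and -0.0078 to 0.24 (STUB1). HSPA6, which lies below the negative controls, was at 0.0069 after quantile normalization. Of the 22 members above the negative controls that kept their sign, 14 moved by over 1.5 times when 1 array was left out. Besides those given above with their values, HSPA13 ran from 0.068 to 0.24, HSPA14 from -0.19 to -0.019, HSP90AA1 from -0.15 to -0.064, DNAJA2 from 0.037 to 0.37, DNAJB4 from -0.32 to -0.040, DNAJB6 from 0.021 to 0.20, DNAJC7 from 0.034 to 0.22 and ST13 from 0.010 to 0.048. Apart from the effect of a single array, the cause was not tested. With 2 arrays a group, small differences such as those of most members are not detectable one by one. The block changed no call of a member.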
